A study of Homo sapiens with 12 samples.

Results

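The replication-dependent histone genes encode the bulk of the linker histone H1 and of the core histones H2A, H2B, H3 and H4. They were chosen by current symbol, as H1-1 to H1-6 and the symbols that begin with H2AC, H2BC, H3C or H4C followed by a number, leaving out 13 pseudogenes and H2BC12L, which lies outside the histone clusters. GENCODE v44 held 69 such genes, and 67 of them had an identifier among the 60617 of the deposited gene tables. H2AC18 and H2AC19 were not analysed here. Of the 67 genes, 6 encode H1, 15 H2A, 18 H2B, 13 H3 and 15 H4, and 55 lie in the cluster at 6p22, 9 at 1q21, 2 at 1q42 and 1 at 12p12.

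These genes are switched on as cells enter S phase, when NPAT, a coactivator that cyclin E and CDK2 phosphorylate, assembles with CASP8AP2 (FLASH) at the histone locus body. Their mRNAs carry no poly(A) tail and end just after a short stem-loop, which the stem-loop binding protein SLBP holds and next to which the U7 snRNP directs the cut. The same stem-loop guides the rapid decay of histone mRNA when DNA synthesis stops.

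Sequencing covered HCT 116p53-/-, a p53-null derivative of a human colorectal cancer line, and a sub-line of it labelled RPL3 KO, which carries the same p53 genotype. RPL3 encodes the ribosomal protein uL3, and the study's text describes the sub-line as stably silenced for uL3. Each line received vehicle or 5 nM actinomycin D (Act D), a dose at which the drug blocks mainly rRNA transcription, for 24 h, and each of the 4 groups had 3 libraries. The labels call these biological replicates and do not say whether they came from separate cultures, so p-values measure the spread between these libraries.

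The library totals were between 10087925 and 21138886 expected counts. RPL3 was not lower in the libraries labelled RPL3 KO. It was between 1121 and 1151 CPM (counts scaled to a common library size) in the vehicle-treated and between 1112 and 1137 CPM in the Act D-treated HCT 116p53-/- libraries. In the libraries labelled RPL3 KO it was between 1188 and 1337 CPM with vehicle and between 1132 and 1279 CPM with Act D (edgeR quasi-likelihood test, adjusted p = 0.154 and 0.187 between the lines). The lines also differed in cell type markers. The 10 colon epithelial markers, of which 4 were under 1 CPM in HCT 116p53-/- and 6 in RPL3 KO with vehicle, summed to between 2480 and 2814 CPM in the HCT 116p53-/- libraries and between 1591 and 1983 CPM in those labelled RPL3 KO. Of the 7 that were tested, 6 were lower in RPL3 KO with vehicle and KRT18 was higher, at 605 and 840 CPM on average. CDH1 averaged 66.8 and 0.445 CPM and CDX2 14.8 and 0.177 CPM with vehicle. The 8 markers of other cells summed to between 55.02 and 98.9 CPM and between 2512 and 2845 CPM, and VIM was between 19.7 and 25.9 CPM and between 2211 and 2271 CPM with vehicle. Of the 7 tested, 5 were higher in RPL3 KO, and most of their sum was VIM and FN1 (249 CPM with vehicle). COL1A1 was lower, at 7.50 and 4.14 CPM. The part of these differences between the lines in the histone results was not tested. Within the RPL3 KO vehicle group, replicate 1 stood apart in H2B mRNA, which summed to 886 CPM there and to 1483 and 1314 CPM in replicates 2 and 3. That library was the highest of its group at some other genes, among them HIRA (58.9 against 38.4 and 36.9 CPM) and UPF1 (144 against 107 and 99.8 CPM).

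Although mature histone mRNAs have no poly(A) tail, they were well represented. They took between 0.285 and 0.499% of the counts of a library, while 5 abundant untailed RNAs (RN7SL1, RN7SL2, RN7SK, RMRP and RPPH1) took between 7.45 and 13.7%. The untailed RNAs took a median of 8.76 and 8.44% in HCT 116p53-/- with vehicle and Act D and of 10.7 and 11.3% in RPL3 KO, and the part of this difference in the histone results was not tested. In a bulk sample, fewer cells in S phase and less histone mRNA per S-phase cell cannot be told apart.

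The element that defines these mRNAs was found in the genome sequence of every one of these genes. Whether the measured mRNAs ended at it was not examined. In the 150 bases after the stop codon (hg38, GENCODE v44 canonical transcript), all 67 genes held a stem-loop of 16 bases, starting between 23 and 63 bases after the stop codon (median 36). It took 10 forms, and 38 genes shared the commonest. The following sequences show it for genes that the results turn on, 5′ to 3′ on the coding strand, with the stem-loop in capitals and 4 flanking bases on each side.
H2BC8, chr6:26216214-26216237 (minus strand): caaaGGCTCTTTTCAGAGCCactc
H2AC8, chr6:26217413-26217436 (plus strand): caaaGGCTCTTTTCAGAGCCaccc
H3C1, chr6:26020928-26020951 (plus strand): caaaGGCTCTTTTCAGAGCCacca
H4C2, chr6:26026897-26026920 (minus strand): caatGGCCCTTTTCAGGGCCgccc
H4C9, chr6:27139650-27139673 (plus strand): aaaaGGCCCTTTTTAGGGCCccta
H4C11, chr6:27824455-27824478 (plus strand): aaaaGGCCCTTTTCAGGGCCaccc
H2BC12, chr6:27146362-27146385 (minus strand): caaaGGCTCTTTTAAGAGCCactt
H2BC8, H2AC8 and H3C1 shared the commonest form. The lines differed at H2BC8 and H2AC8 in the opposite direction to H3C1, as given below, and a relation between form and level was not tested. All 10 genes described below as close to silent in HCT 116p53-/- held the stem-loop.

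Of the 67 genes, 56 passed the filter on low counts (4 H1, 14 H2A, 16 H2B, 11 H3 and 11 H4). The other 11 (H1-1, H1-6, H2AC1, H2BC1, H2BC3, H3C3, H3C11, H4C6, H4C7, H4C12 and H4C13) had at most 80 counts summed over the 12 libraries, and 4 of them had none. Per kilobase of effective transcript length, the highest levels belonged to an H4 pair. H4C11 averaged 884 CPM per kb over the 12 libraries and H4C14 averaged 675 CPM per kb. They were followed by H2BC12 at 483, H2AC13 at 439 and H1-4 at 437 CPM per kb. H4C11, on 6p22, held about the same level in all 4 groups. Its libraries stood at 162, 226 and 191 CPM in HCT 116p53-/- with vehicle and at 174, 207 and 162 CPM with Act D. In RPL3 KO they stood at 175, 221 and 172 CPM with vehicle and at 193, 139 and 167 CPM with Act D. All 4 groups overlapped, and no comparison called H4C11.

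Most histone reads came from genes that the 2 lines shared, and the family totals differed far less than single genes did. The H1 genes summed to 494 ± 47.4 CPM (SD, n = 3) in HCT 116p53-/- and 556 ± 54.8 CPM in RPL3 KO with vehicle. The H2A genes summed to 914 ± 130 and 851 ± 73.4 CPM. The H2B genes summed to 1036 ± 130 and 1227 ± 308 CPM, and without replicate 1 the RPL3 KO mean was 1398 CPM. The H3 genes summed to 687 ± 94.1 and 866 ± 94.95 CPM, and the H4 genes to 947 ± 90.2 and 952 ± 106 CPM. Scaled by library size alone, the H4 means were 1064 and 909 CPM and the H1 means 555 and 531 CPM, so that their order turned. On that scale the H2B means were 1163 and 1165 CPM, so that almost no difference in H2B was left. The H2A means were then 1026 and 812 CPM and the H3 means 772 and 827 CPM. No test was made on sums.

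**Figure D1:**
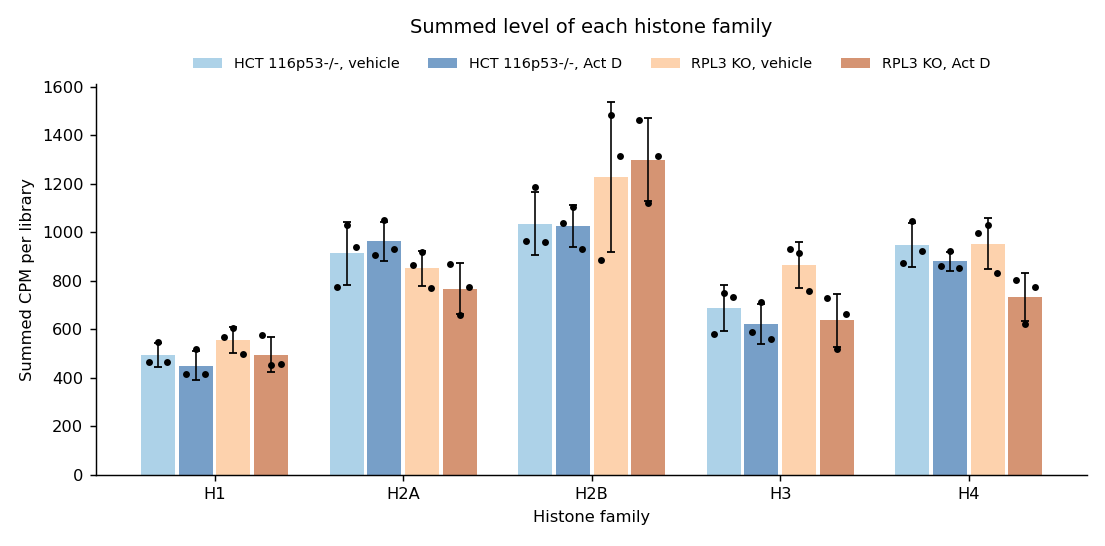
Summed CPM of the genes of each histone family. Bars give the mean of 3 libraries, error bars the SD and points the libraries of each of the 4 groups. In RPL3 KO the H3 means with vehicle and Act D were 866 and 637 CPM, the H4 means 952 and 733 CPM and the H2B means 1227 and 1299 CPM.

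The question whether the lines express the same histone genes was addressed by comparing RPL3 KO with HCT 116p53-/- within each treatment. With vehicle, 17 of 56 genes were higher and 20 lower in RPL3 KO, beside 35.1% higher and 36.2% lower among all 15692 genes tested. With Act D, 15 were higher and 23 lower, beside 35.1% and 35.3%. These shares lie near the background. In both treatments, 14 genes were higher and 20 lower, none was called in opposite directions, and log2 fold changes with vehicle ran from -2.03 to 8.38. The 14 include the 10 genes of the set described next, and the share of all genes called in both treatments was not counted.

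A set of 10 genes was close to silent in HCT 116p53-/- and well expressed in RPL3 KO. The set was chosen after its values were seen, by a mean under 2 CPM in both HCT 116p53-/- groups and over 10 CPM in both RPL3 KO groups, so its level differences are a description and get no p. Its members passed the filter on low counts through the RPL3 KO libraries. It holds H1-3 and H1-5, H2AC8 and H2AC16, H2BC8, H2BC9 and H2BC10, H3C7 and H3C8, and H4C9, so that all 5 families are represented. With vehicle, the pooled counts of these genes in HCT 116p53-/- lay between 6 and 34, and their level was between 0.291 and 3.36% of that in RPL3 KO. With Act D it was between 0.472 and 6.59%.

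H3C8 had the largest difference with vehicle. Its libraries read 0.389, 0.276 and 0.483 CPM in HCT 116p53-/- and 126, 154 and 115 CPM in RPL3 KO. The pooled counts were 18 and 6339, a 347-fold difference (exact 95% interval 219 to 585, counting error only). The fitted log2 fold change was 8.38 ± 0.22 (SE).

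H2BC10 had 0 to 5 counts in the vehicle-treated HCT 116p53-/- libraries and 389 to 981 in those of RPL3 KO. In CPM these were 0.324, 0 and 0.0604 against 31.3, 49.1 and 42.9 (fitted log2 fold change 8.23 ± 0.34). H1-5, a linker histone gene, stood at 0.519, 0.138 and 0.181 CPM against 89.3, 77.9 and 65.7 CPM (8.07 ± 0.25). The groups lay far apart for all 3 genes. H1-3 and H1-5 together made 17.8% of the H1 sum in RPL3 KO and 0.202% in HCT 116p53-/-. The 10 genes made 13.3% of the sum over all histones in RPL3 KO and 0.0790% in HCT 116p53-/- with vehicle.

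With Act D the largest difference was that of H2AC16. It had no more than 3 counts in any Act D-treated HCT 116p53-/- library, at 0, 0.203 and 0 CPM, and stood at 16.2, 13.8 and 12.99 CPM in RPL3 KO (fitted log2 fold change 7.53 ± 0.42). The pooled counts, 3 and 456, gave a ratio of 211 with an exact 95% interval from 71.9 to 1028. With so few counts the size of this difference is poorly fixed, and H3C8, with a log2 fold change of 7.11 ± 0.20, and H2BC10, with 7.24 ± 0.31, lay close to it.

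Most of these genes lay side by side. Of the 10, 7 fell in a stretch of 57213 bases, chr6:26216200-26273412 (hg38), from H2BC8 to H2BC10. That stretch holds 10 histone genes in all. The other 3 were H3C6, which was low in both lines, at 2.92 to 3.37 CPM in HCT 116p53-/- and 3.86 to 4.60 CPM in RPL3 KO with vehicle, and H4C6 and H4C7, which did not pass the filter. So no gene of the stretch was well expressed in HCT 116p53-/-. H4C5 ends 11179 bases before H2BC8 and stood at 118, 127 and 98.2 CPM in HCT 116p53-/- and 145, 131 and 116 CPM in RPL3 KO with vehicle. H4C8 starts 4197 bases after H2BC10 and stood at 11.7, 12.9 and 11.6 CPM against 67.7, 66.6 and 59.7 CPM, a log2 fold change of 2.42 ± 0.11 (edgeR adjusted p = 1.66e-12). H4C5 thus overlapped between the lines, while H4C8 was higher in RPL3 KO but far from silent in HCT 116p53-/-. The other 3 genes of the set lay elsewhere in 6p22, H2AC16 and H1-5 being neighbours 994 bases apart and H4C9 standing between expressed genes.

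**Figure D2:**
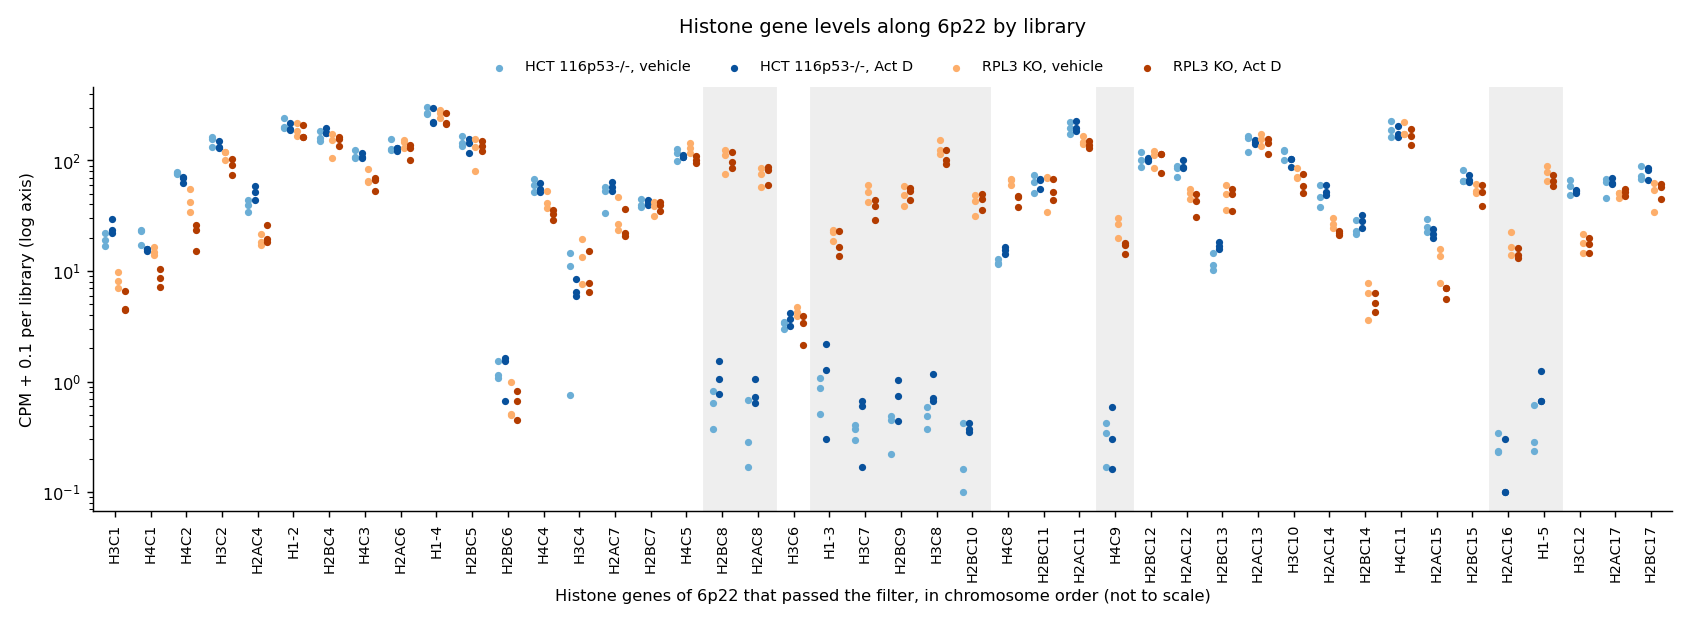
CPM plus 0.1 of the histone genes of 6p22 that passed the filter, on a log axis, in chromosome order and not to scale. Each point is a library, coloured by group, and grey bands mark the 10 genes close to silent in HCT 116p53-/-. In the bands the HCT 116p53-/- libraries lie at or under 2.09 CPM and the RPL3 KO libraries at or over 12.99 CPM.

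Of the 17 genes higher in RPL3 KO with vehicle, 10 were those of the silent set. The median log2 fold change was -0.09 over the 56 genes and -0.02 over all genes tested. Apart from the silent set, 7 of 46 genes were higher and 20 lower (median -0.24), beside 35.1% and 36.2% of all genes. With Act D, 5 of these 46 were higher and 23 lower (median -0.33), beside 35.1% and 35.3%. The silent set was chosen for being higher in RPL3 KO, so leaving it out lowers what remains. Of the genes lower in RPL3 KO, H2BC14 differed most. It stood at 22.8, 28.9 and 21.6 CPM in HCT 116p53-/- and 3.53, 7.66 and 6.21 CPM in RPL3 KO with vehicle, without overlap (log2 fold change -2.03 ± 0.20, edgeR adjusted p = 5.89e-08). H3C12 stood at 48.9, 65.8 and 58.6 CPM against 17.99, 21.4 and 14.6 CPM (-1.68 ± 0.14, edgeR adjusted p = 5.88e-09). H3C1 stood at 16.6, 21.8 and 19.0 CPM against 8.03, 9.66 and 6.95 CPM (-1.21 ± 0.16, edgeR adjusted p = 3.33e-06). All 3 genes encode core histones of the 6p22 cluster, and their groups did not overlap.

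With Act D, H2BC14 differed by -2.42 ± 0.22 on the log2 scale, H3C1 by -2.30 ± 0.18 and H2AC15 by -1.74 ± 0.21 (edgeR adjusted p = 1.62e-08, 3.51e-09 and 7.82e-07). H4C16, the gene of the 12p12 cluster, was instead higher in RPL3 KO. It stood at 17.6, 20.2 and 15.04 CPM in HCT 116p53-/- and 56.0, 87.9 and 65.0 CPM in RPL3 KO with vehicle (1.99 ± 0.17, edgeR adjusted p = 6.41e-09). H2BC13, on 6p22, was at 11.3, 14.5 and 10.1 against 35.3, 59.6 and 49.6 CPM (2.02 ± 0.19, edgeR adjusted p = 2.68e-08).

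Among the most abundant genes of each family, H1-5 was far higher in RPL3 KO, as given above. Of the other linker histones, H1-4 stood at 267, 307 and 263 CPM in HCT 116p53-/- and 269, 284 and 244 CPM in RPL3 KO with vehicle, and H1-2 at 199, 240 and 201 against 186, 220 and 168 CPM. Neither was called (log2 fold changes -0.07 ± 0.12 and -0.16 ± 0.12). Among the H2A genes, H2AC11 stood at 172, 221 and 197 CPM against 146, 168 and 142 CPM, a small fall (-0.37 ± 0.10, edgeR adjusted p = 0.00407). H2AC13 (119, 161 and 167 against 158, 174 and 135 CPM) and H2AC6 (125, 157 and 126 against 146, 153 and 130 CPM) overlapped between the lines and were not called.

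Among the 3 most abundant H2B genes, results turned on single libraries. H2BC21, on 1q21, stood at 111, 150 and 116 CPM in HCT 116p53-/- and 114, 229 and 205 CPM in RPL3 KO with vehicle. Its log2 fold change was 0.54 ± 0.18 (edgeR adjusted p = 0.0129), and 0.79 without replicate 1 of RPL3 KO. The call was lost without replicate 2 (0.35) or 3 (0.46) of RPL3 KO with vehicle, without replicate 1 of HCT 116p53-/- with vehicle (0.47), and with scaling by library size alone (0.30). H2BC18 stood at 142, 184 and 153 against 135, 212 and 193 CPM and was not called (0.18 ± 0.14), but was called without that library, at 0.35 (edgeR adjusted p = 0.0123). H2BC4, at 161, 185 and 151 against 105, 175 and 152 CPM, was not called. It was called lower without replicate 2 of RPL3 KO with vehicle (-0.37, edgeR adjusted p = 0.0244) and with library size alone (-0.44).

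In the H3 family, H3C2 stood at 132, 162 and 157 CPM in HCT 116p53-/- and was lower, at 120, 119 and 100 CPM, in RPL3 KO with vehicle (-0.41 ± 0.12, edgeR adjusted p = 0.00395). H3C14 and H3C15 are listed with identical values in every library, at 114, 150 and 143 against 229, 212 and 185 CPM. RSEM's posterior standard deviation was 40.6% of their counts, so they stand for 1 measurement shared by a pair of near-identical genes. Their log2 fold change was 0.62 ± 0.15 (edgeR adjusted p = 0.00111). H4C15 (50.0%) and H3C4 (17.9%) were uncertain in the same way, while the posterior standard deviation was under 5% of the count for the other 52 genes.

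Many H2A and H2B genes are arranged head to head around a shared promoter. There are 12 such pairs with at most 500 bases between their starts, and both genes were tested in 11. With vehicle, both genes of 4 pairs were called in the same direction, 5 pairs had 1 gene called, and 2 had none. With Act D, both genes of 4 pairs were called in the same direction, 5 pairs had 1 gene called, and 1 had none. Both genes of 1 pair, H2BC21 and H2AC20, were called in opposite directions (0.75 ± 0.18 and -0.35 ± 0.15). Of all genes tested, 35.1% were higher and 36.2% lower with vehicle, and 35.1% and 35.3% with Act D. The pair counts were not set against pairs of other genes. H2BC8 and H2AC8, both of the silent set, differed by 7.64 ± 0.28 and 7.99 ± 0.30 with vehicle, and H2BC14 and H2AC14 were both lower (-2.03 ± 0.20 and -0.83 ± 0.14). H2BC13 differed by 2.02 ± 0.19 while its partner H2AC13 differed by 0.06 ± 0.13, and H2BC12 by 0.07 ± 0.15 while H2AC12 differed by -0.70 ± 0.14.

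The bases between the starts of 3 of these pairs are given next, since the lines differed at both genes of the first, at the H2B gene of the second and at the H2A gene of the third. They are written 5′ to 3′ on the plus strand of hg38, with 3 promoter motifs in capitals: the octamer ATTTGCAT, the CCAAT box CCAAT and the TATA box TATAAA, searched on both strands.
H2BC8 and H2AC8, chr6:26216689-26216920: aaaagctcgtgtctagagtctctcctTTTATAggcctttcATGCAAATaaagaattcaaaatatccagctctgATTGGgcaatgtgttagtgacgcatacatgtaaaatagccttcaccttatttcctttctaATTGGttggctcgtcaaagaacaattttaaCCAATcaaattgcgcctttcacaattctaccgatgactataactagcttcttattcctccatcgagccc
H2BC13 and H2AC13, chr6:27807930-27808172: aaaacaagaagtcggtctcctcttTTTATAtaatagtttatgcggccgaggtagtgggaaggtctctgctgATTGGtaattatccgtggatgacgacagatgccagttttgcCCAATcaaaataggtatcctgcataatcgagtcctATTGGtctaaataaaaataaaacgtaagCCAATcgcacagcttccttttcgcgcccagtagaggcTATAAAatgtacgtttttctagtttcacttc
H2BC12 and H2AC12, chr6:27146856-27147105: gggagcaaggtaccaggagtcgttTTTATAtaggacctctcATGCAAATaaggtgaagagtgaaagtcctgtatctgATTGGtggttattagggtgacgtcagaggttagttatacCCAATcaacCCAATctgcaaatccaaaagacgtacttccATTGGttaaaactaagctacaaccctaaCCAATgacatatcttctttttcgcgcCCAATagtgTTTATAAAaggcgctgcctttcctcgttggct
The spacer of H2BC8 and H2AC8 held 1 octamer, 3 CCAAT boxes and 1 TATA box, that of H2BC13 and H2AC13 no octamer, 4 CCAAT boxes and 2 TATA boxes, and that of H2BC12 and H2AC12 1 octamer, 6 CCAAT boxes and 3 TATA boxes. A stretch TTTATAAA counts once on each strand.

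Promoters of 62 of the 67 genes were matched by symbol in RefSeq (GRCh38.p14, from 250 bases before to 50 after the start, first entry per gene). The octamer was in 78.6% of H2A and 77.8% of H2B promoters, in 1 of 11 H3 promoters and in none of the 6 H1 and 13 H4 promoters, against 1.8% of all 27305 promoters. CCAAT was in 83.9% of histone promoters and 35.7% of all, and TATAAA in 64.5% and 12%. Among the 10 silent genes, 5 held the octamer, 10 CCAAT and 4 TATAAA, and among the other 52 promoters these were in 21, 42 and 36. The median number of CG dinucleotides was 7.5 in the silent set and 12 in the other promoters. These are descriptions of letters in a window.

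The response to Act D was compared within each line, and both responses to each other. In HCT 116p53-/-, few histone genes were called with Act D. Of 56 genes, 1 was higher and 1 lower, beside 7.59% and 11.1% of all genes tested (median log2 fold change 0.02, the same as over all genes). DESeq2 called 6 higher and 1 lower, edgeR with no filter called 4 higher and 2 lower, and 7 were higher and 2 lower at an unadjusted p under 0.05. H2AC4 rose from 33.9, 43.4 and 39.6 CPM to 52.1, 58.6 and 44.2 CPM (0.41 ± 0.14, edgeR adjusted p = 0.0434). H4C1 fell from 17.2, 23.3 and 23.1 CPM to 15.2, 15.7 and 15.8 CPM (-0.44 ± 0.14, edgeR adjusted p = 0.0308). Neither group pair overlapped, yet both calls were lost without any 1 of 3 libraries, replicate 3 with vehicle and replicates 1 and 2 with Act D.

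The choice of the silent set bounded its levels in HCT 116p53-/- with Act D, so they are given as values alone. H1-5 stood at 0.519, 0.138 and 0.181 CPM with vehicle and 0.561, 1.15 and 0.563 CPM with Act D. H3C8 stood at 0.389, 0.276 and 0.483 CPM with vehicle and 1.06, 0.609 and 0.563 CPM with Act D. Both were at or under 1.15 CPM in each of these libraries.

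In the libraries labelled RPL3 KO, Act D lowered H4 and H3 genes. None of the 56 genes was higher (edgeR; none had an unadjusted p under 0.05 in that direction, and DESeq2 called none) and 11 were lower, beside 3.51% and 8.4% of all genes tested. The 11 were 7 of 11 H4 genes (H4C1, H4C2, H4C4, H4C5, H4C8, H4C9 and H4C14), 3 of 11 H3 genes (H3C1, H3C14 and H3C15, of which the last 2 are 1 measurement) and 1 of 14 H2A genes (H2AC15). None of the 16 H2B or 4 H1 genes was called or had an unadjusted p under 0.05 with edgeR, and DESeq2 called none of them. The median log2 fold change was -0.52 over the H4 genes, -0.45 over H3, -0.21 over H2A, -0.21 over H1 and 0.05 over H2B, against 0.03 over all genes. The families were not tested against each other. At 1q21, 3 of 9 tested genes were lower, and at 6p22 8 of 44.

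H4C2 fell furthest. It stood at 55.02, 42.03 and 33.9 CPM with vehicle and 23.4, 15.1 and 25.7 CPM with Act D (-1.02 ± 0.17, edgeR adjusted p = 0.000551). H2AC15 fell from 15.7, 13.6 and 7.63 CPM to 6.91, 6.97 and 5.45 CPM (-0.92 ± 0.22, edgeR adjusted p = 0.00901). H4C1 fell from 16.5, 14.7 and 13.8 CPM to 8.51, 7.08 and 10.3 CPM (-0.79 ± 0.15, edgeR adjusted p = 0.00207). No Act D library reached a vehicle library for any of the 3.

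H4C14, the H4 gene of 1q21 with the second highest level per kb, fell from 331, 306 and 247 CPM to 222, 168 and 220 CPM (-0.53 ± 0.12, edgeR adjusted p = 0.00553). H4C8, at 67.7, 66.6 and 59.7 CPM, fell to 47.9, 37.6 and 47.1 CPM (-0.55 ± 0.10, edgeR adjusted p = 0.00173). H4C5 fell from 145, 131 and 116 CPM to 109, 94.0 and 100 CPM (-0.37 ± 0.10, edgeR adjusted p = 0.0238). Act D and vehicle libraries did not overlap for these genes either. The H4 genes that were not called were H4C3, H4C11, H4C15 and H4C16, with log2 fold changes between -0.52 and 0.08.

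**Figure D3:**
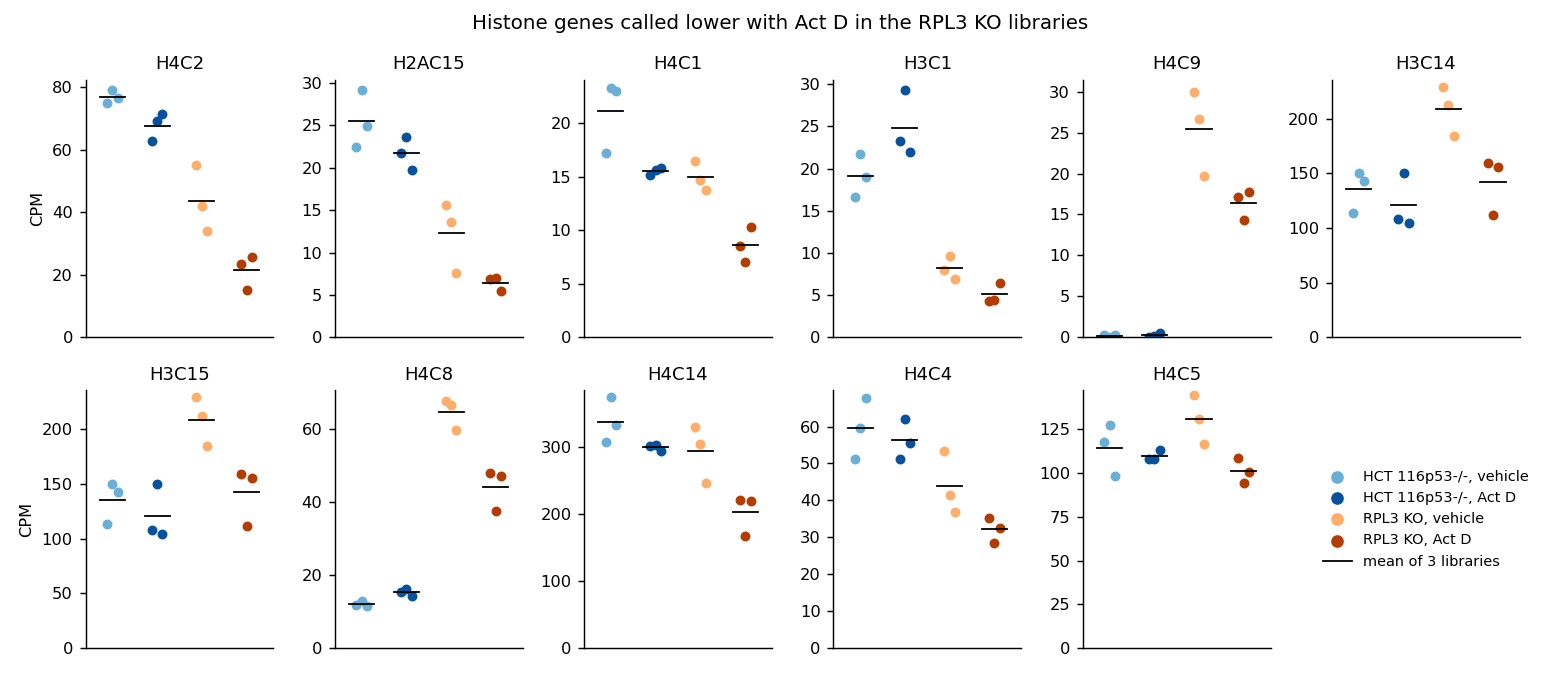
CPM of the 11 genes called lower with Act D in RPL3 KO, by library and group, with the mean of 3 libraries as a line, each axis starting at 0. The RPL3 KO vehicle points stand above the Act D points for each gene, and H3C14 and H3C15 have the same values.

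Single libraries decided how many genes were called. Without replicate 1 of RPL3 KO with vehicle, the library with low H2B, 6 genes were lower (H4C1, H4C2, H4C8, H4C14, H2AC15 and H3C1). Without replicate 2 of that group also 6 were lower, 5 of them from among the 11, and without replicate 2 of RPL3 KO with Act D, the library with the lowest histone sum, 5. H4C1, H4C2, H4C8, H4C14 and H2AC15 were called in each of these fits. With Act D the H4 sum differed by -23.0% in RPL3 KO and -7.16% in HCT 116p53-/-, and the H3 sum by -26.5% and -9.59%. These sizes depend on the scaling. With library size alone the H4 means with vehicle and Act D were 909 and 652 CPM in RPL3 KO and 1064 and 924 CPM in HCT 116p53-/-. The H3 means were then 827 and 567 CPM in RPL3 KO and 772 and 653 CPM in HCT 116p53-/-.

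**Figure D4:**
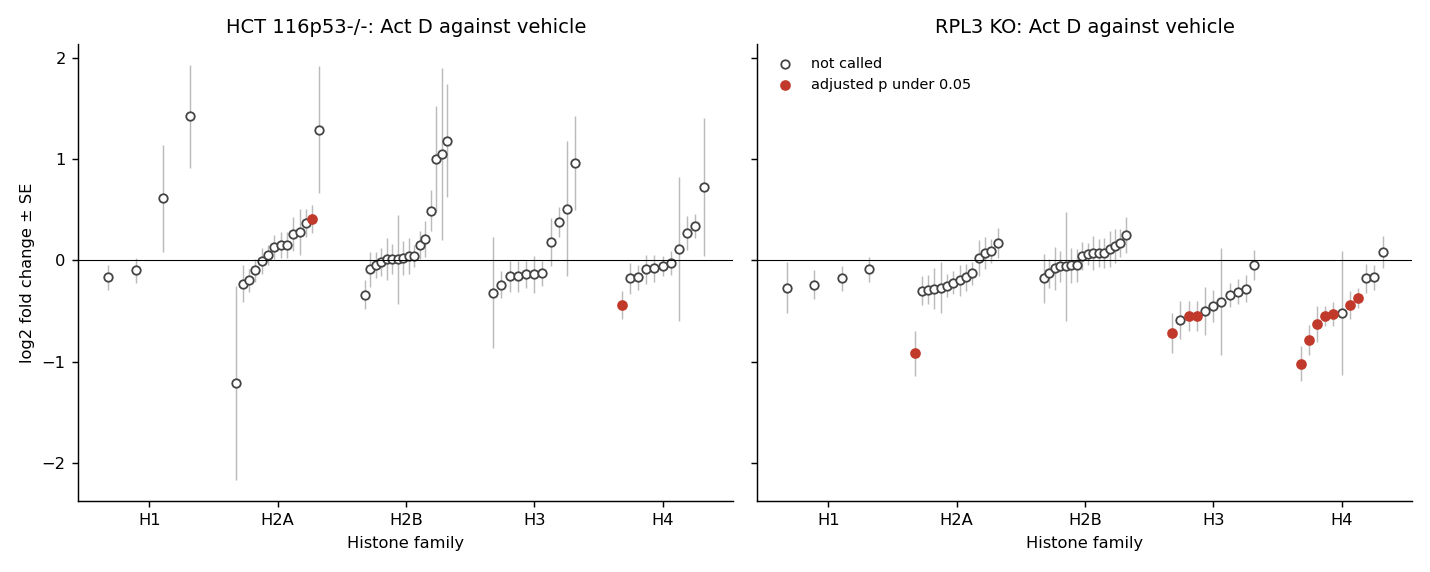
Log2 fold change of each of the 56 tested genes with Act D against vehicle in HCT 116p53-/- (left) and in RPL3 KO (right), grouped by family and ordered by size, with the SE as a bar. Filled points have an adjusted p under 0.05, 2 on the left and 11 on the right, and on the right they lie mostly among H3 and H4.

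A call in 1 line and not in the other does not show that the responses differ, so the difference was tested as an interaction. None of the 56 genes had a higher response in RPL3 KO (edgeR; 1 had an unadjusted p under 0.05, and DESeq2 called none), and 3 had a lower one, beside 3.3% and 3.23% of all genes tested. The log2 fold change of H3C1 was 0.38 ± 0.15 in HCT 116p53-/-, which was not called, and -0.72 ± 0.20 in RPL3 KO, a difference of -1.10 ± 0.25 (edgeR adjusted p = 0.0132). Its libraries stood at 16.6, 21.8 and 19.0 CPM and then 23.2, 29.3 and 21.96 CPM in HCT 116p53-/-, and at 8.03, 9.66 and 6.95 CPM and then 4.36, 4.45 and 6.49 CPM in RPL3 KO. H4C8 differed by -0.89 ± 0.16 (edgeR adjusted p = 0.00269) and H4C2 by -0.83 ± 0.22 (edgeR adjusted p = 0.0332). H4C8 kept its call in each of the 12 fits without 1 library. H4C2 lost it in 9 of them, with values between -0.64 and -0.91 and adjusted p between 0.0504 and 0.0708. Without replicate 1 of RPL3 KO with Act D, H3C1 lost its call too and H4C8 alone was called. For the other 8 genes called in RPL3 KO no difference between the responses was called. All comparisons with vehicle within a line share that line's vehicle libraries with the comparison between lines.

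Genes that make and end histone mRNAs were read from lists. Of 18 genes of stem-loop processing, 2 were higher and 2 lower with Act D in HCT 116p53-/-, and 3 were lower in RPL3 KO. For these lists, the shares over all genes tested were 7.59% higher and 11.1% lower in HCT 116p53-/- and 3.51% higher and 8.4% lower in RPL3 KO, and nothing is read from counts this small. SLBP stood at 143, 136 and 137 CPM in HCT 116p53-/- with vehicle and 125, 159 and 133 CPM with Act D (0.01 ± 0.09). In RPL3 KO it fell from 90.7, 86.4 and 79.2 CPM to 61.2, 67.4 and 68.6 CPM (-0.38 ± 0.10, edgeR adjusted p = 0.0134), a call that was lost without replicate 1 with Act D (-0.33, adjusted p = 0.0707). SLBP was thus lower in RPL3 KO with both treatments (-0.70 ± 0.09 and -1.08 ± 0.09), and the groups did not overlap. The difference between its responses to Act D was -0.39 ± 0.13 (edgeR adjusted p = 0.0916), which was not called.

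NPAT fell with Act D in HCT 116p53-/-, from 46.8, 43.3 and 42.6 CPM to 32.02, 26.7 and 32.3 CPM (-0.54 ± 0.12, edgeR adjusted p = 0.00298), and changed by -0.37 ± 0.12 in RPL3 KO, which was not called (edgeR adjusted p = 0.0605). Its RPL3 KO libraries stood at 23.2, 26.6 and 27.5 CPM with vehicle and 16.65, 23.1 and 20.5 CPM with Act D, without overlap. There the fall was called with DESeq2 (adjusted p = 0.0484), library size alone, no filter, and without vehicle replicate 1 or Act D replicate 2. CASP8AP2 fell by 0.50 ± 0.10 in HCT 116p53-/- (edgeR adjusted p = 0.00118) and changed by -0.13 ± 0.10 in RPL3 KO. Between the lines with vehicle, NPAT differed by -0.78 ± 0.12 and CASP8AP2 by -0.81 ± 0.10 (edgeR adjusted p = 1.04e-05 and 6.27e-07). Both genes of the histone locus body were thus lower in RPL3 KO with vehicle, and both fell with Act D in HCT 116p53-/-. For neither gene was a difference between the responses of the lines called.

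The U7 snRNP proteins LSM10 and LSM11 and the U7 cofactor ZNF473 were not called with Act D in either line. A fall of ZNF473 in RPL3 KO was called with library size alone (-0.42), without vehicle replicate 1 (-0.37) and without Act D replicate 3 (-0.47). A fall of LSM11 in HCT 116p53-/- was called with library size alone (-0.36). LSM11 was higher in RPL3 KO (0.57 ± 0.11 with vehicle, edgeR adjusted p = 0.000149), and LSM10 was not called. The cleavage factor gene CSTF3 rose by 0.96 ± 0.09 with Act D in HCT 116p53-/- and changed by -0.10 ± 0.09 in RPL3 KO. CPSF4 fell by 0.61 ± 0.10 in RPL3 KO and WDR33, also of the cleavage machinery, by 0.44 ± 0.08.

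Of 16 genes of histone mRNA decay, 1 rose and 2 fell with Act D in HCT 116p53-/- and 1 fell in RPL3 KO. That 1 was UPF1, a helicase of mRNA decay, which rose by 0.35 ± 0.12 in HCT 116p53-/- and fell by 0.57 ± 0.12 in RPL3 KO (edgeR adjusted p = 0.0412 and 0.00361). ERI1, the nuclease that trims histone mRNA ends, changed by -0.26 ± 0.09 and -0.12 ± 0.10 and was not called. Its fall in HCT 116p53-/- was called with library size alone (-0.36) and without Act D replicate 3 (-0.34). Of 12 genes of polyadenylation, 2 rose and 1 fell in HCT 116p53-/-, and 1 rose and 2 fell in RPL3 KO.

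Replacement histones are made throughout the cell cycle, mostly from polyadenylated mRNAs. Of these, H3-3B, for the histone H3.3, rose with Act D in HCT 116p53-/- (0.35 ± 0.08, edgeR adjusted p = 0.00506), though not with scaling by library size alone (0.25, adjusted p = 0.0670). H2AX, H2AZ1 and H1-10 were not called with Act D in either line, and H1-10 and H3-3A were higher in RPL3 KO (1.75 ± 0.19 and 0.76 ± 0.09 with vehicle). H3-3B went the other way between HCT 116p53-/- and RPL3 KO. It averaged 674 and 456 CPM with vehicle and 860 and 477 CPM with Act D, without overlap. Of the 12 replacement variants tested, 5 were higher and 4 lower in RPL3 KO with vehicle, beside 35.1% and 36.2% of all genes tested.

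Of 23 histone chaperone genes, 4 fell with Act D in HCT 116p53-/-, and 3 rose and 3 fell in RPL3 KO. CHAF1A, a subunit of the chromatin assembly factor that deposits H3 and H4 on new DNA, fell in both lines (-1.22 ± 0.09 and -0.93 ± 0.09, edgeR adjusted p = 1.15e-07 and 6.3e-06). HIRA, the H3.3 chaperone, fell in both as well (-0.47 ± 0.14 and -1.03 ± 0.16). ASF1B, a chaperone of new H3 and H4, rose in RPL3 KO (0.42 ± 0.10, edgeR adjusted p = 0.00702), though not with scaling by library size alone (0.32, adjusted p = 0.0596). CHAF1B was not called with Act D but was lower in RPL3 KO with vehicle (-1.74 ± 0.10).

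Of 26 genes of S phase, 2 rose and 8 fell with Act D in HCT 116p53-/-, and 1 rose and 5 fell in RPL3 KO. CCNE1, cyclin E1, was higher in both lines (0.34 ± 0.11 and 0.42 ± 0.12), but the call was lost under 8 alternatives in HCT 116p53-/-, among them 5 fits without 1 library, and under 7 in RPL3 KO. The libraries whose absence ended it were vehicle replicates 2 and 3 and Act D replicates 1 to 3 of HCT 116p53-/-, and vehicle and Act D replicates 1 and 3 of RPL3 KO, with values between 0.27 and 0.43 in these fits. PCNA, the clamp of the replication fork, rose in HCT 116p53-/- (0.35 ± 0.08) and changed by 0.06 ± 0.08 in RPL3 KO. For none of the 26 genes, PCNA among them, was a difference between the responses called, beside 3.3% higher and 3.23% lower of all genes tested. Between the lines with vehicle, 5 of the 26 were higher and 15 lower in RPL3 KO, beside 35.1% and 36.2% of all genes tested, among them CCNE2 (-1.15 ± 0.12), CCNE1 (-1.14 ± 0.11) and PCNA (-0.67 ± 0.08). The part of S-phase cell numbers in the histone results was not tested.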

How the data were processed

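The authors trimmed the reads, removed those of ribosomal RNA and other contaminants, and assigned the rest with RSEM 1.2.25 to genes and transcripts of the Ensembl annotation (hg38). The deposited expected counts are not normalized. In 11 libraries they are per gene, and in replicate 2 of HCT 116p53-/- with vehicle they are per transcript (226788) and were summed per gene. RSEM also made the deposited TPM, FPKM and isoform percent values for the authors. They were not used, except that TPM weighted the transcript lengths of that library. Lengths and posterior standard deviations are the authors' RSEM values. The strand setting is not given in the sources used here. Counts were rounded, filtered with filterByExpr (15692 genes), TMM-normalized (factors 0.847 to 1.148), and tested with edgeR 4.0.16 (quasi-likelihood, all 12 libraries, 1 coefficient per group) with Benjamini-Hochberg adjustment over all genes at 0.05. Fold changes are log2 with their SE. CPM uses TMM-scaled library sizes. Names came from GENCODE v44, with 60261 of 60617 identifiers matched. Counting intervals are exact at 95%. Named genes were the 3 most abundant per family, up to 3 with the largest call in each direction, and fixed related genes, with up to 2 per list and direction. Some genes named by this rule are given only by counts, and a few are not reported here. The histone genes and lists were chosen with earlier results of these data known. DESeq2 1.42.0, other scalings and filters, the replicate number as a block, fits of 2 groups and leaving out each library were alternatives. The test was checked on simulated data. R 4.3.3 and Python 3.11 were used.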

Additional observations from a re-analysis of the deposited data

Results flagged for a closer look

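By the test of the interaction, 3 of 56 histone genes had a lower response to Act D in RPL3 KO than in HCT 116p53-/-. Of all genes tested, 3.3% had a higher and 3.23% a lower response. The 3 genes were H3C1 (-1.10 on the log2 scale, RPL3 KO minus HCT 116p53-/-), H4C8 (-0.89) and H4C2 (-0.83). The call for H4C2 was lost when the libraries were scaled by size alone, and in 9 of 12 fits without 1 library. That for H3C1 was lost without replicate 1 of RPL3 KO with Act D (-0.98, edgeR adjusted p = 0.0566). Among the related genes reported here the difference was 0.56 for ASF1B, which lost its call in 3 fits without 1 library (0.42 to 0.53, adjusted p between 0.0553 and 0.0725), 0.68 for ATR, -0.63 for CPSF4, -1.06 for CSTF3, -0.47 for UBN1, -0.92 for UPF1 and -0.47 for WDR33.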

How the results depend on the processing

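For Act D in HCT 116p53-/-, the count of 1 histone gene higher became 0 with library size alone and with the replicate block, 2 with the upper quartile and with a filter of 1 CPM in 3 libraries, 4 with no filter or only the 2 groups, and 6 with DESeq2. The count of 1 lower became 0 with the replicate block and 2 with library size alone, no filter or only the 2 groups. For Act D in RPL3 KO, 17 were lower with no filter against 11. For the interaction, 5 were lower with DESeq2 and 11 with no filter against 3, and 1 was higher with no filter against 0. The cause was not tested.

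Leaving out 1 library at a time gave 0 to 3 higher and 0 to 2 lower for Act D in HCT 116p53-/-, 5 to 14 lower for Act D in RPL3 KO, and 1 to 5 lower for the interaction. Between the lines it gave 15 to 18 higher and 16 to 21 lower with vehicle, and 15 to 17 higher and 19 to 24 lower with Act D. With 2 libraries in a group, they are assumed to vary like those of the other groups.

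With library size alone, which moved the median of all genes between the lines to -0.26, the vehicle-treated HCT 116p53-/- sums were 555 CPM for H1 and 1064 CPM for H4, and the Act D-treated H4 sum was 924 CPM. Replicate numbers did not pair the libraries: correlations of same-numbered deviations were between -0.104 and 0.101. With the replicate block, 10 genes were lower with Act D in RPL3 KO and 3 in the interaction. Of 92 called results for named genes, 72 stayed called under every alternative run, 20 lost the call under at least 1, and none reversed.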
